A study of Mus musculus with 22 samples.

Results

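Eomes, T (Brachyury), Mixl1, Gsc, Lhx1 and Mesp1 are 6 transcription factor genes of the mesendoderm, the tissue that gives rise to mesoderm and endoderm at gastrulation. They were taken by name, with earlier results of these data known, and all 6 were found among the 55055 genes that the count tables share. The libraries are bulk poly(A) RNA-seq from cultures of mouse embryonic stem (mES) cells and of their derivatives, either wild type or labelled Hox-/- (BADC in the sample titles), a genotype said to lack all Hox function. There were 22 libraries in 10 groups, with total counts of 9.11 to 28.8 M (mega) per library.

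The groups differed as follows. mES cells of both genotypes had 2 libraries each and grew in medium with LIF, CHIR99021 at 3 µM, which inhibits GSK-3, and PD0325901 at 1 µM, which inhibits MEK. Endoderm cultures of both genotypes had 3 libraries each. They were adherent cells given 100 ng/ml Activin A with 3 µM CHIR99021 at 24 h and again at 72 h, and collected at 120 h. Gastruloids, clusters of stem cells grown in suspension as embryo models, had 2 libraries per group at 96 h and 2 at 120 h. They were labelled Activin A in both genotypes and Chiron in wild type alone, and the labels give no dose for either. Endoderm cultures and gastruloids are labelled as mixed cells. In bulk RNA a lower level from fewer cells of a type and from less RNA per cell cannot be told apart. How many clones stand behind each genotype is not given, so genotype and cell line cannot be told apart. Nothing in the labels says that replicates came from separate cultures, so p-values measure only the spread between these samples, which may be technical. Groups of 2 or 3 libraries can easily lie without overlap, and the share of all genes that do so is not given. The labels give no batch, and the 96 h gastruloid libraries held 15 to 28.8 M counts against 9.11 to 11.9 M at 120 h, so time and depth cannot be told apart.

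At gastrulation, Nodal and Wnt signals act on the epiblast at the primitive streak. Activin A acts through the same receptors and SMAD proteins as Nodal, and GSK-3 inhibition stabilises β-catenin, the effector of Wnt signalling. Eomes and T encode T-box factors. Eomes is needed for definitive endoderm and for the earliest mesoderm, and T for posterior mesoderm and the notochord. Mixl1, a paired-type homeobox gene, marks the primitive streak and takes part in endoderm formation. Gsc and Lhx1 encode homeodomain factors of the anterior streak and the organizer, with Lhx1 also used in intermediate mesoderm. Mesp1 encodes a bHLH factor of nascent mesoderm, including the precursors of the heart.

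Positions are those of the deposited tables, on mm10. Eomes (ENSMUSG00000032446) lies on chromosome 9, 118478212 to 118486132, plus strand, with 6 exon blocks. T (ENSMUSG00000062327) lies on chromosome 17, 8434423 to 8442496, plus strand, with 8 exon blocks. Mixl1 (ENSMUSG00000026497) lies on chromosome 1, 180693043 to 180697034, minus strand, with 2 exon blocks. Gsc (ENSMUSG00000021095) lies on chromosome 12, 104471209 to 104473330, minus strand, with 3 exon blocks. Lhx1 (ENSMUSG00000018698) lies on chromosome 11, 84518284 to 84525535, minus strand, with 5 exon blocks. Mesp1 (ENSMUSG00000030544) lies on chromosome 7, 79792241 to 79793788, minus strand, with 2 exon blocks. The antisense gene Gm33460 shares 118 exon bases with Eomes, and whether the counting used strand is not given in the sources used here, so reads from the pair cannot be told apart. Its own highest level was 0.891 CPM (counts scaled by the library total). Lhx1os starts 125 bases from Lhx1 on the other strand without exon overlap, and Gm10000 lies next to Gsc in the same way, with highest levels of 14.6 and 2.31 CPM.

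The 250 bases before the RefSeq start (build GRCm38.p6) are shown for T and Eomes because T kept a high level in the Chiron gastruloids while Eomes, also a T-box gene, was near absent there. Neither window holds annotated exon bases. Capitals mark the T-box half-site AGGTGTNA and the TCF/LEF core CTTTGA, on either strand.
T, chr17:8434173-8434422, plus strand: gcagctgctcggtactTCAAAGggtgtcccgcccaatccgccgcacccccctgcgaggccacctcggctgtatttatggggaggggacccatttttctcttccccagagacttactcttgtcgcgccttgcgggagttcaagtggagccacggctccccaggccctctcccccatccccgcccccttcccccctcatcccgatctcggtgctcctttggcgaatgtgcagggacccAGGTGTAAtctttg
Eomes, chr9:118477939-118478188, plus strand: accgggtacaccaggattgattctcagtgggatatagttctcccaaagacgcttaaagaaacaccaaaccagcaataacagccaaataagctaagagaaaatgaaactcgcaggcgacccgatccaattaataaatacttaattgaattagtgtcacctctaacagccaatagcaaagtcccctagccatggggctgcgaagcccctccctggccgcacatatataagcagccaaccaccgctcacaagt
The T window held 1 T-box half-site, 14 bases before the start, and 1 TCF/LEF core on the minus strand, 234 bases before it. These motifs were present in 2.68% and 13.8% of 32851 RefSeq windows of the same length. The Eomes window held neither of them. It also held no FOXH1 site (AATNCACA, in 3.18% of windows), SMAD box (CAGAC, in 42.2%) or bicoid-type homeodomain site (GGATTA, in 6.25%), all searched on both strands. The Mesp1 window had TCF/LEF cores 72 and 31 bases before the start and a SMAD box 117 bases before it, and the Lhx1 window had a SMAD box 60 bases before it. The Gsc window had none of the 5 motifs. Unlike the windows shown, these 3 hold annotated exon bases. The count is 198 of 250 for Mesp1, all in its own exon, where its matches lie. It is 90 for Lhx1 (Lhx1 and Lhx1os) and all 250 for Gsc (Gsc and Gm10000). In all, 5 of the 6 genes had a window in the RefSeq table, and Mixl1 was not among them. The part of any of these motifs in the levels of the genes was not tested.

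The cultures differed widely in the level of these genes, which is given as CPM. T was highest in the Hox-/- Activin A gastruloids at 96 h, with a mean of 2129 CPM, then in wild type at 96 h with 1730 CPM and in the Chiron gastruloids at 96 h with 531 CPM. These groups did not overlap. The lowest level of T, 0.761 CPM, was in Hox-/- mES cells. Eomes was highest in the wild-type Activin A gastruloids at 96 h (173 CPM) and in the wild-type endoderm cultures (162 CPM), whose libraries overlapped. It was lowest in the Chiron gastruloids, at 1.44 CPM at 96 h and 0.592 CPM at 120 h, below its level in either mES group. Mixl1 peaked at 230 CPM in the wild-type Activin A gastruloids at 96 h, followed by Hox-/- at 96 h with 180 CPM, and both genotypes of endoderm culture came next with overlapping libraries.

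Gsc and Lhx1 shared their highest group, the wild-type Activin A gastruloids at 96 h, with 57.9 and 206 CPM. For Gsc the next groups were wild type at 120 h (21.4 CPM) and wild-type endoderm (19.8 CPM), which overlapped. For Lhx1 they were wild type at 120 h (74.6 CPM), then the Chiron gastruloids at 96 h (45.7 CPM) and Hox-/- at 120 h (42.7 CPM), which overlapped. Mesp1 had another order. Its highest mean was 19.8 CPM in the Hox-/- Activin A gastruloids at 120 h, then 7.30 CPM in the Chiron gastruloids at 96 h. Wild-type Activin A at both times, Hox-/- at 96 h and Chiron at 120 h lay between 2.06 and 2.45 CPM, each overlapping its neighbour in the order. Mesp1 had no count in any mES library. The plot of the 6 genes by library shows these levels on a log scale.

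**Figure D1:**
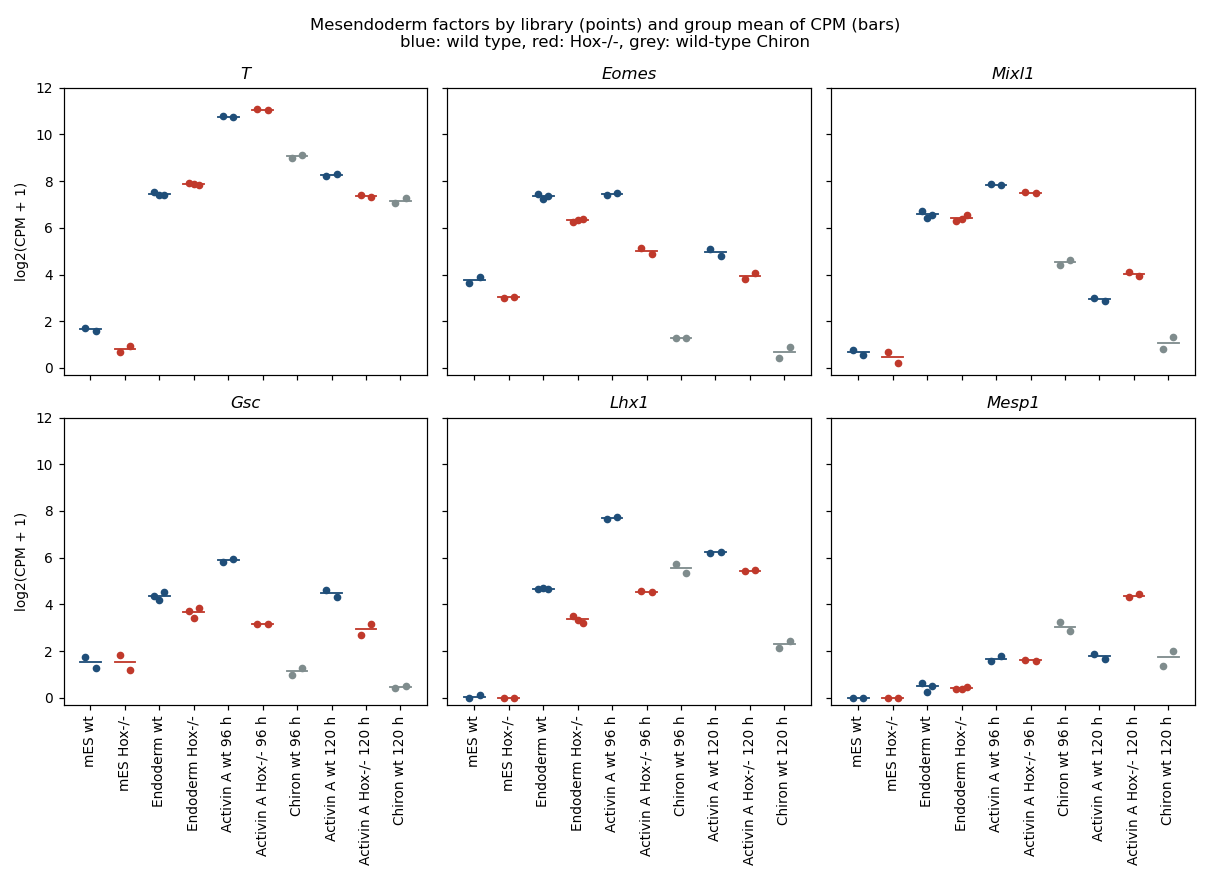
Level of each gene, log2(CPM + 1), in each library (points) with the mean of the group's CPM (bars), for the 10 groups on the horizontal axis. T reached 2129 CPM at 96 h in Hox-/- and was at 131 CPM or more in every library of differentiated cells, whereas Eomes and Gsc came down to 0.592 and 0.380 CPM in the Chiron gastruloids at 120 h and Mesp1 was highest, at 19.8 CPM, in Hox-/- at 120 h.

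In mES cells the 6 genes were low, and Eomes and T were lower in Hox-/- than in wild type. Eomes was at 11.3 and 13.9 CPM in the wild-type libraries and at 7.10 and 7.23 CPM in Hox-/-, a log2 change of -0.81 (SE 0.144, edgeR's quasi-likelihood test, Benjamini-Hochberg adjusted p = 5.92e-05). T was at 2.26 and 2.02 CPM in wild type and at 0.598 and 0.924 CPM in Hox-/-, a log2 change of -1.51 (SE 0.369, adjusted p = 0.00257). Neither gene overlapped between genotypes. Gsc was at 2.32 and 1.40 CPM in wild type and at 2.61 and 1.26 CPM in Hox-/-, and did not pass (log2 change 0.06, SE 0.331, adjusted p = 0.931). Mixl1 (at most 0.730 CPM), Lhx1 (at most 0.0777 CPM) and Mesp1 had too few counts to be tested. So 2 of the 3 genes tested passed, both lower, where 23.2% of 13631 genes tested passed, 12.4% higher and 10.8% lower. The call on T was lost without the wild-type library 1 (adjusted p = 0.0588) and with DESeq2 (0.101). Neither gene passed limma's test on log2(FPKM + 1), with adjusted p of 0.202 for Eomes and 0.248 for T, or on log2(FPKM + 0.1), with 0.0849 and 0.257. The number of all genes called fell from 3168 to 1477 without that library and to 1690 without the wild-type library 2.

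Every gene that could be tested was higher in endoderm cultures than in mES cells, in both genotypes. From mES cells to wild-type endoderm cultures the log2 change was 3.57 for Eomes (SE 0.0877), 6.22 for T (SE 0.104), 7.14 for Mixl1 (SE 0.204) and 3.26 for Gsc (SE 0.229). In Hox-/- it was 3.38 for Eomes (SE 0.103), 8.20 for T (SE 0.123), 7.62 for Mixl1 (SE 0.227) and 2.50 for Gsc (SE 0.247). Lhx1 was at or under 3 counts in every mES library. It was therefore at least 113-fold higher in wild-type and at least 38.8-fold higher in Hox-/- endoderm cultures, each set against a floor of 3 counts per library, which covers counting error only. All 5 genes tested rose in either genotype, where 79.9% of 16251 genes passed in wild type (41.6% higher) and 80.6% in Hox-/- (42.7% higher). The 13 genes of the pluripotency list went the other way. They summed to 7347 to 7818 CPM over the mES libraries and to 356 to 1255 CPM over the endoderm libraries. The sum was 1113 to 1255 CPM in wild-type and 356 to 380 CPM in Hox-/- endoderm cultures, and the part of this difference in the genotype results below was not tested.

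In endoderm cultures, Eomes, Gsc and Lhx1 were lower in Hox-/- than in wild type and T was higher. Eomes was at 171, 151 and 163 CPM in wild type and at 74.4, 79.7 and 82.5 CPM in Hox-/-. Lhx1 was at 24.5, 24.7 and 24.0 CPM in wild type and at 10.3, 9.10 and 8.32 CPM in Hox-/-. Gsc was at 19.8, 17.1 and 22.5 CPM in wild type and at 12.3, 9.84 and 13.4 CPM in Hox-/-. For these 3 genes each wild-type library lay above each Hox-/- library, and the log2 changes were -1.03 (SE 0.0591, adjusted p = 6.40e-09), -1.39 (SE 0.0924, adjusted p = 2.91e-08) and -0.73 (SE 0.125, adjusted p = 2.85e-04), in the order Eomes, Lhx1, Gsc.

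T moved the other way. Its 3 wild-type libraries were at 185, 168 and 171 CPM and its 3 Hox-/- libraries at 244, 236 and 229 CPM, without overlap (log2 change 0.45, SE 0.0503, adjusted p = 6.24e-06). On the deposited FPKM, which scale by transcript length, the difference was 0.31 on the log2(FPKM + 1) scale and did not pass limma's test (adjusted p = 0.193). The ratio of FPKM to CPM ranged 1.71-fold for T over 21 libraries, against 1.15 to 1.40-fold for the other genes, and its part in this was not tested. Mixl1 overlapped between genotypes, with 105, 85.2 and 92.9 CPM in wild type and 76.6, 82.0 and 93.3 CPM in Hox-/- (log2 change -0.16, SE 0.0804, adjusted p = 0.126). It passed without the wild-type library 2 (adjusted p = 0.0472) and without the Hox-/- library 3 (0.0264). Mesp1 stayed at or under 0.568 CPM and was not tested. In all, 4 of the 5 genes tested passed, 1 higher and 3 lower, where 46.2% of 14975 genes passed, 23.1% higher and 23.1% lower.

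The genotype effect differed between endoderm cultures and mES cells for T, 1 of the 5 genes tested in one fit, by 1.98 on the log2 scale (SE 0.306, adjusted p = 8.41e-05). T was lower in Hox-/- mES cells, where it had 8 and 11 counts, and higher in Hox-/- endoderm cultures. Neither genotype change of T passed limma's test on log2(FPKM + 1), with adjusted p of 0.248 in mES cells and 0.193 in endoderm cultures. The difference between them was not fitted on FPKM. Across all genes 24.1% passed this test. For Eomes the difference was -0.20 (SE 0.156, adjusted p = 0.399), and Gsc passed only with GC and length offsets (-0.91, adjusted p = 0.0413).

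In Activin A gastruloids at 96 h, Eomes and the anterior streak and organizer genes Gsc and Lhx1 were far lower in Hox-/-. Lhx1 was at 200.04 and 213 CPM in wild type and at 22.7 and 21.9 CPM in Hox-/-. Gsc was at 55.8 and 60.02 CPM in wild type and at 7.95 and 8.02 CPM in Hox-/-. Eomes was at 167 and 178 CPM in wild type and at 34.4 and 28.9 CPM in Hox-/-. The groups were far apart for all 3. The Hox-/- mean was 10.8% of wild type for Lhx1 (log2 change -3.15, SE 0.0535, adjusted p = 1.01e-42), 13.8% for Gsc (log2 change -2.81, SE 0.0883, adjusted p = 3.83e-31) and 18.3% for Eomes (log2 change -2.38, SE 0.0585, adjusted p = 9.93e-36). In that contrast 0.951% of the genes tested had a larger change in either direction than Lhx1, 1.2% a larger one than Gsc and 1.60% a larger one than Eomes.

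The other streak genes moved little at 96 h. Mixl1 was at 235 and 225 CPM in wild type and at 182 and 177 CPM in Hox-/- (log2 change -0.31, SE 0.0391, adjusted p = 7.63e-09). T was at 1769 and 1691 CPM in wild type and at 2145 and 2113 CPM in Hox-/- (log2 change 0.35, SE 0.0373, adjusted p = 4.44e-11). Neither gene overlapped, but T did not pass limma's test on log2(FPKM + 1) (difference 0.28, adjusted p = 0.536). Mesp1 overlapped, with 1.96 and 2.44 CPM in wild type and 2.10 and 2.01 CPM in Hox-/- (log2 change -0.05, SE 0.225, adjusted p = 0.886). In all, 5 of the 6 genes passed, 1 higher and 4 lower. Of 16831 genes tested, 38.9% passed, 22.2% higher and 16.7% lower, so that 57.0% of calls were higher, against 42.6% when libraries were scaled by their totals alone. The median log2 change of the 6 genes was -1.34, against 0.03 over all genes.

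At 120 h all 6 genes differed between genotypes, and Mixl1 and Mesp1 were now higher in Hox-/-. Mesp1 was at 2.7 and 2.2 CPM in wild type and at 18.8 and 20.9 CPM in Hox-/-. Mixl1 was at 7.03 and 6.37 CPM in wild type and at 16.2 and 14.4 CPM in Hox-/-. Both groups were apart, with a log2 change of 3.12 for Mesp1 (SE 0.188, adjusted p = 9.71e-20) and of 1.31 for Mixl1 (SE 0.140, adjusted p = 3.17e-11).

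The other 4 genes were lower in Hox-/- at 120 h. Eomes was at 32.8 and 27.01 CPM in wild type and at 13.0 and 15.6 CPM in Hox-/- (log2 change -0.96, SE 0.115, adjusted p = 7.83e-10). Gsc was at 23.8 and 19.0 CPM in wild type and at 5.43 and 7.95 CPM in Hox-/- (log2 change -1.58, SE 0.145, adjusted p = 2.88e-13). Lhx1 was at 73.6 and 75.6 CPM in wild type and at 42.6 and 42.8 CPM in Hox-/- (log2 change -0.69, SE 0.0661, adjusted p = 8.61e-13). T, which had been higher at 96 h, was at 296 and 313 CPM in wild type and at 168 and 161 CPM in Hox-/- (log2 change -0.78, SE 0.0463, adjusted p = 6.19e-20). All 4 were without overlap. With 6 of 6 passing, 2 higher and 4 lower, the background was 50.4% of 16831 genes, 24.9% higher and 25.5% lower. Higher calls made up 49.4% of all calls, and 34.6% when libraries were scaled by their totals alone. The median over the 6 genes was -0.74, against -0.02 over all genes.

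**Figure D2:**
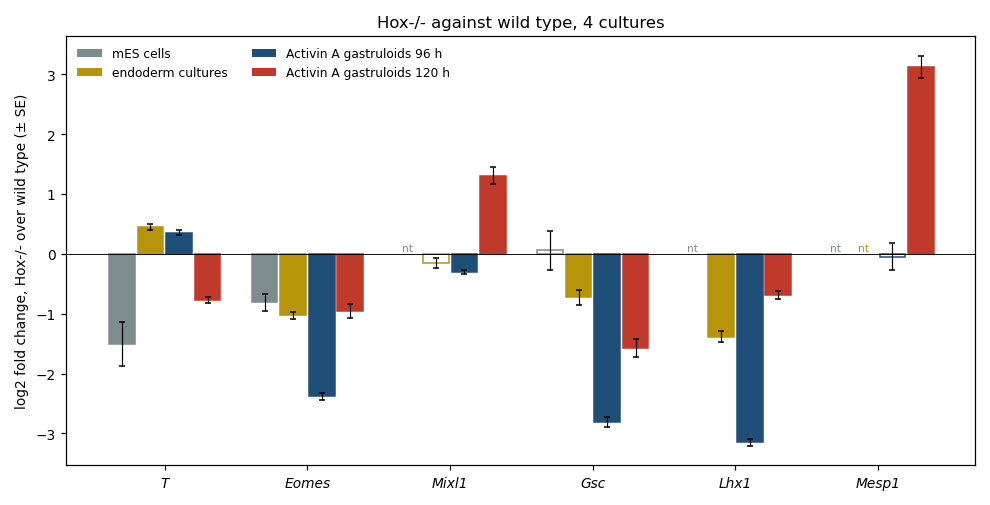
Log2 fold change, Hox-/- over wild type, for each gene in 4 kinds of culture (bars, edgeR, with the standard error as whiskers; open bars did not pass the adjusted p of 0.05, and nt marks a gene that was not tested). Lhx1, Gsc and Eomes reached their lowest values at 96 h (-3.15, -2.81 and -2.38), and Mesp1 and Mixl1 were higher in Hox-/- at 120 h (3.12 and 1.31).

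The same libraries give the change from 96 h to 120 h, so these values and the genotype values share samples. In wild type, Mixl1 fell the furthest, by 5.18 on the log2 scale (SE 0.0791), and its mean at 120 h was 2.91% of that at 96 h. Eomes fell by 2.61 (SE 0.0692), T by 2.58 (SE 0.0421), Lhx1 by 1.54 (SE 0.0493) and Gsc by 1.51 (SE 0.0856). Mesp1 did not pass (log2 change 0.07, SE 0.263, adjusted p = 0.812). Thus 5 of 6 fell and none rose, where 74.9% of genes passed, 37.2% higher and 37.8% lower.

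In Hox-/- the course over time was mixed. T fell by 3.71 (SE 0.0446), Mixl1 by 3.57 (SE 0.0662) and Eomes by 1.18 (SE 0.101). Lhx1 rose by 0.91 (SE 0.0732, adjusted p = 9.15e-16), from 22.3 to 42.7 CPM, and Mesp1 rose by 3.24 (SE 0.163, adjusted p = 2.07e-23), from 2.06 to 19.8 CPM. Gsc stayed near its 96 h level, with a log2 change of -0.28 (SE 0.158, adjusted p = 0.106), and passed without the Hox-/- 120 h library 2 (log2 change -0.56, adjusted p = 0.0164). Thus 2 rose and 3 fell, where 72.4% of genes passed, 34.9% higher and 37.6% lower. With counts thinned to the smallest library, no change of these 6 genes in the gastruloids gained or lost its call.

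The genotype effect itself differed between the times for all 6 genes, in a test of which 38.9% of all genes passed. The difference of the effects (120 h minus 96 h, log2) was 3.17 for Mesp1 (SE 0.307), 2.46 for Lhx1 (SE 0.0891), 1.61 for Mixl1 (SE 0.145), 1.43 for Eomes (SE 0.136) and 1.23 for Gsc (SE 0.189), with adjusted p of 5.48e-07 for Gsc and below that for the others. For T it was -1.13 (SE 0.0594, adjusted p = 1.71e-21). Eomes, Gsc and Lhx1 were lower in Hox-/- at both times, by less at 120 h, while T and Mixl1 changed sign.

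Activin A against Chiron, in wild type, separated Eomes and Gsc most at 96 h. Eomes was at 167 and 178 CPM with Activin A and at 1.46 and 1.42 CPM with Chiron (log2 change 6.84, SE 0.111, adjusted p = 9.53e-24). Gsc was at 55.8 and 60.02 CPM with Activin A and at 0.973 and 1.42 CPM with Chiron (log2 change 5.48, SE 0.132, adjusted p = 1.25e-20). These are the wild-type Activin A libraries of the genotype comparisons. Mixl1 was at 20.1 and 23.8 CPM with Chiron (log2 change 3.32, SE 0.0704), Lhx1 at 51.5 and 39.8 CPM (log2 change 2.13, SE 0.0766) and T at 507 and 556 CPM (log2 change 1.64, SE 0.0570), all lower than with Activin A and without overlap. Mesp1 was the exception. It was at 8.42 and 6.18 CPM with Chiron and at 1.96 and 2.44 CPM with Activin A (log2 change -1.76, SE 0.203, adjusted p = 7.74e-08). All 6 passed, 5 higher with Activin A and 1 lower, where 61.6% of 17305 genes passed, 31.3% higher and 30.2% lower.

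At 120 h the order was similar, with Mesp1 no longer apart. Chiron libraries held Eomes at 0.335 and 0.848 CPM and Gsc at 0.335 and 0.424 CPM. These were 4 and 8 counts for Eomes and 4 and 4 for Gsc, near the floor of 3 counts. The log2 changes for Activin A over Chiron were 5.66 (SE 0.227) for Eomes and 5.76 (SE 0.272) for Gsc. With a library left out, that of Eomes ranged from 5.084 to 6.385. Lhx1 was at 3.44 and 4.35 CPM with Chiron (log2 change 4.23, SE 0.153), Mixl1 at 0.754 and 1.48 CPM (log2 change 2.58, SE 0.283) and T at 131 and 152 CPM (log2 change 1.06, SE 0.0632). T kept a high level under both treatments, whereas Eomes and Gsc were close to absent with Chiron. Mesp1 overlapped, at 1.59 and 3.07 CPM with Chiron and 2.7 and 2.2 CPM with Activin A (log2 change 0.07, SE 0.354, adjusted p = 0.904). In all 5 of 6 passed, all higher with Activin A, where 41.9% of genes passed, 20.3% higher and 21.6% lower.

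**Figure D3:**
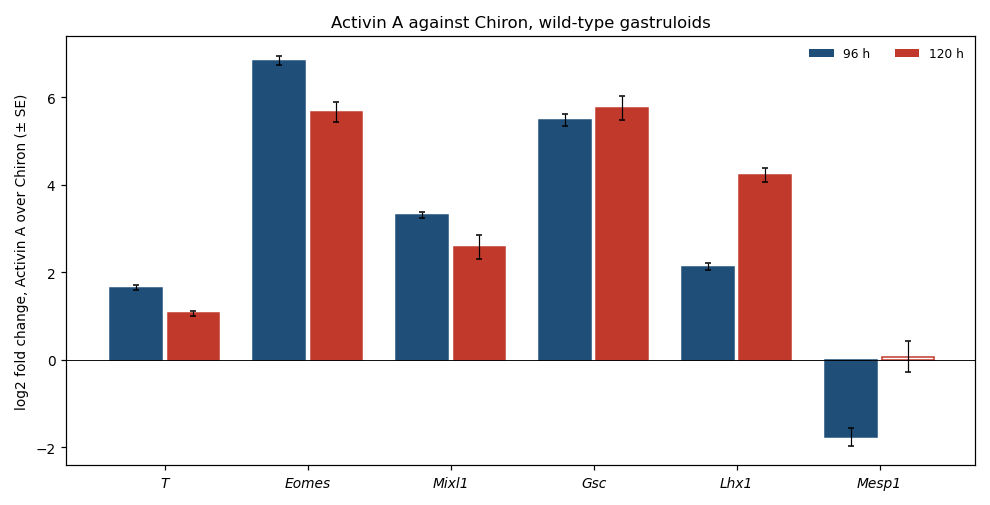
Log2 fold change, Activin A over Chiron, in wild-type gastruloids at 96 h and 120 h (bars, edgeR, with the standard error as whiskers; the open bar did not pass the adjusted p of 0.05). Eomes and Gsc had changes of 5.48 to 6.84 at both times, T the smallest of the changes above 1 (1.64 and 1.06), and Mesp1 was lower with Activin A at 96 h (-1.76).

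Between 96 h and 120 h all 6 genes fell in the Chiron gastruloids, where 61.7% of genes passed, 28.5% higher and 33.2% lower. Mixl1 fell by 4.46 (SE 0.191), Lhx1 by 3.66 (SE 0.153), T by 2.02 (SE 0.0619), Gsc by 1.80 (SE 0.469), Mesp1 by 1.78 (SE 0.249) and Eomes by 1.45 (SE 0.403) on the log2 scale. The fall of Eomes, from 1.44 to 0.592 CPM, did not pass without the Chiron 120 h library 1 (log2 change -0.88, adjusted p = 0.139). The treatment effect differed between times for Lhx1, Mesp1 and T, with differences (120 h minus 96 h) of 2.10 (SE 0.195, adjusted p = 7.40e-09), 1.83 (SE 0.417, adjusted p = 0.00114) and -0.58 (SE 0.0842, adjusted p = 6.26e-06). These are 3 of 6 genes, where 39.6% of all genes passed. For T the difference did not pass limma's test on log2(FPKM + 1) (adjusted p = 0.147), nor for Mesp1 (0.0582). Eomes, not called in the main fit, passed with DESeq2 (-1.19, adjusted p = 0.0417). Limma also called it on log2(FPKM + 1) (-2.21, adjusted p = 0.000977) and on log2(FPKM + 0.1) (-1.63, 0.0144). Mixl1 passed limma's test on log2(FPKM + 1) (-1.93, adjusted p = 0.00213).

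Levels of different genes can be compared per transcript length, as FPKM. T took the largest share of the 6 genes' summed FPKM in all differentiated cultures, from 42.2 to 49.5% in wild-type endoderm to 95.5 to 96.1% in the Chiron gastruloids at 120 h. In mES cells Eomes was the largest in the wild-type libraries, with 49.1 and 58.9%. The ratio of T to Eomes FPKM was 1.78 to 2.33 in wild-type and 4.54 to 6.92 in Hox-/- endoderm cultures. It was 20.01 to 23.2 in wild-type and 134 to 158 in Hox-/- Activin A gastruloids at 96 h, and 772 to 826 in the Chiron gastruloids at 96 h. At 120 h the genotypes overlapped, with 23.7 to 27.5 in wild type and 16.6 to 34.0 in Hox-/-. The Hox-/- gastruloids at 120 h had the lowest share of T among the gastruloid groups, 61.9 and 74.8%. Mesp1 made up 14.2 and 9.47% there, against 0.70 and 0.91% in wild type. The 2 Hox-/- libraries had T at 168 and 161 CPM but at 110 and 66.5 FPKM. The FPKM to CPM ratio of T thus differed between them, and its part in the spread of these shares and of the T to Eomes ratio was not tested. Gsc and Eomes stayed close to each other per length in wild-type Activin A gastruloids at 96 h, with a ratio of 1.01 in both libraries.

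**Figure D4:**
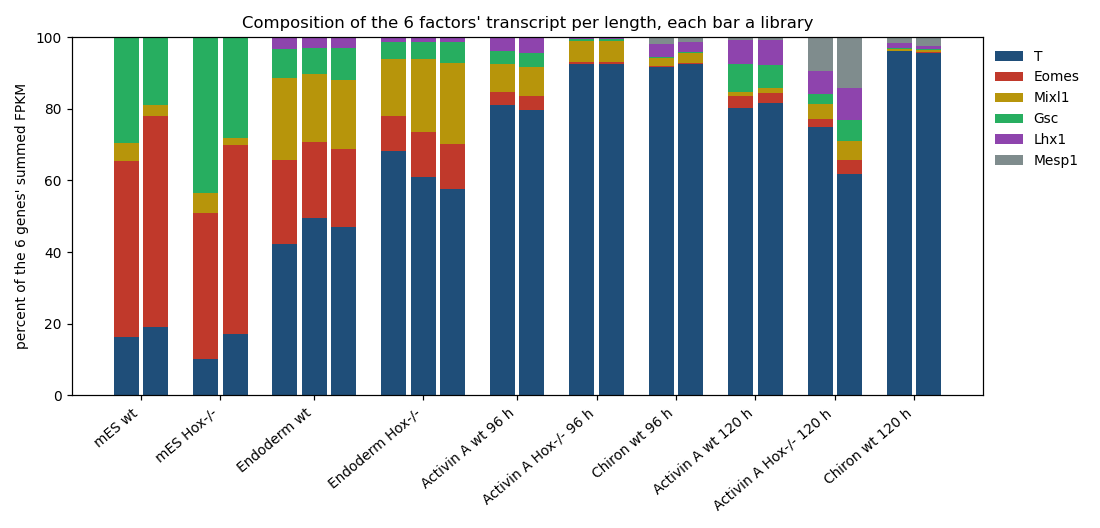
Share of each gene in the summed FPKM of the 6 genes (percent, stacked to 100), with 1 bar for each library. T made up 92.4 to 92.6% in Hox-/- Activin A gastruloids at 96 h, close to the 91.7 to 92.6% in wild-type Chiron gastruloids, against 79.6 to 81.1% in wild-type Activin A gastruloids, and Mesp1 was visible mainly in Hox-/- at 120 h (9.47 to 14.2%).

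The Nodal and Activin pathway was examined through a list of 21 ligands, receptors, SMAD proteins, antagonists and targets, of which 18 could be tested in the gastruloids. At 96 h, 7 were higher and 8 lower in Hox-/- (over all genes 22.2% higher and 16.7% lower), with a median log2 change of 0.00 against 0.03 over all genes. Among the lower genes were the ligands Nodal and Gdf3, the co-receptor gene Tdgf1 and the antagonists Lefty1, Lefty2 and Cer1. Cer1, a secreted antagonist of Nodal, was at 137 and 157 CPM in wild type and at 1.31 and 1.14 CPM in Hox-/- (log2 change -6.83, SE 0.106, adjusted p = 2.38e-44). Lefty2, a Nodal antagonist, fell by 1.52 (SE 0.0495), Tdgf1, also called Cripto, by 1.29 (SE 0.0398) and Nodal itself by 0.49 (SE 0.0454). The receptor genes Acvr1b and Acvr2a were higher by 0.29 and 0.63, and Smad2, Smad3 and Smad4 by 0.13 to 0.16. Foxh1, the DNA-binding partner of the SMAD proteins, did not pass (log2 change -0.06, adjusted p = 0.300). Genes named here beyond Cer1, Tdgf1 and Lefty2 were chosen for their place in the pathway after their values were seen.

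At 120 h, 8 of the 18 were higher and 6 lower, where 24.9% and 25.5% of all genes were, with a median of 0.03. Nodal and Lefty2 were now higher in Hox-/-, by 0.91 and 0.86, while Cer1 stayed lower (log2 change -2.21, SE 0.0786, adjusted p = 4.33e-29). Nodal was at 69.7 and 76.1 CPM in Hox-/- and at 41.8 CPM in both wild-type libraries. In endoderm cultures 7 were higher and 8 lower (median -0.03, with 23.1% of all genes higher and 23.1% lower), with Foxh1 lower by 1.53, Lefty2 by 1.26, Tdgf1 by 1.21 and Nodal by 0.60. In mES cells 4 of 16 were higher and 2 lower, with 12.4% and 10.8% of all genes. Activin A over Chiron gave 10 higher and 5 lower at 96 h (median 0.64, with 31.3% and 30.2% of all genes) and 9 higher and 6 lower at 120 h (median 0.37, with 20.3% and 21.6%). Among them were Tdgf1 (log2 change 5.32 at 96 h) and Lefty2 (2.78 and 4.40).

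**Figure D5:**
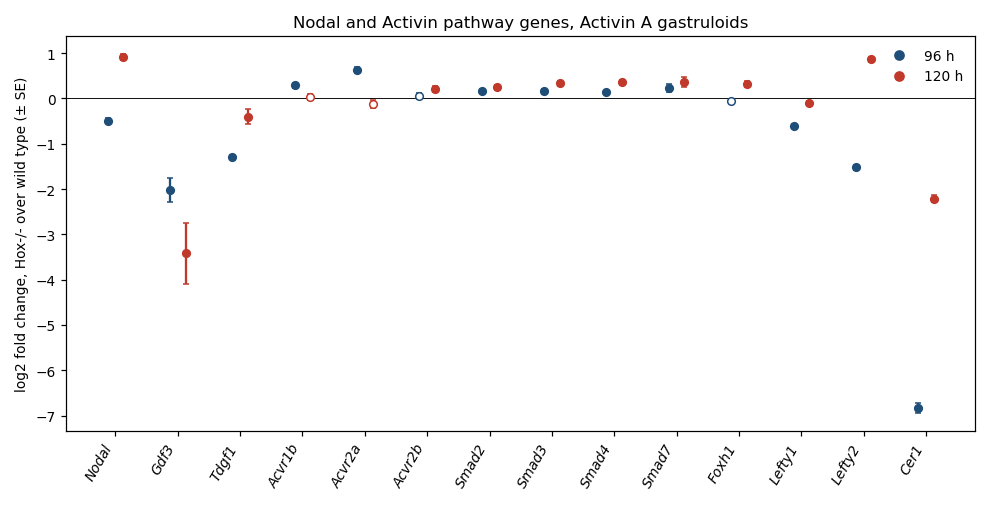
Log2 fold change, Hox-/- over wild type, of 14 ligand, receptor, SMAD, cofactor and antagonist genes of the Nodal and Activin pathway in Activin A gastruloids at 96 h and 120 h (points, edgeR, with the standard error as whiskers; open points did not pass). Cer1 had the lowest value (-6.83 at 96 h), and Nodal and Lefty2 were below 0 at 96 h (-0.49 and -1.52) and above it at 120 h (0.91 and 0.86).

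Of 14 Wnt pathway genes, 6 were higher and 4 lower in Hox-/- at 96 h (median 0.06, with 22.2% and 16.7% of all genes), and 9 were higher and 2 lower at 120 h (median 0.83, with 24.9% and 25.5% of all genes). At 120 h Lef1, a nuclear effector, was higher by 2.38 (SE 0.0473) and Axin2, a feedback target, by 1.88 (SE 0.0566), while Dkk1, a secreted antagonist, was lower (log2 change -3.30, SE 0.132). In endoderm cultures 8 were higher and 3 lower (23.1% of all genes in each direction), with Nkd1 (log2 change 1.49) and Notum (1.22), both negative feedback genes, higher. In mES cells 1 of 9 was higher and 3 were lower, with 12.4% and 10.8% of all genes. Activin A over Chiron gave 5 higher and 8 lower at 96 h (median -0.29, with 31.3% and 30.2% of all genes), with the ligand gene Wnt3 higher by 4.83, and 4 higher and 8 lower at 120 h (median -0.18, with 20.3% and 21.6%).

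Marker lists of tissues in which these factors act are given beside the share of all genes called in the same direction. Of 13 endoderm genes, 12 were lower in Hox-/- Activin A gastruloids at 96 h and 11 at 120 h, with none higher and medians of -2.83 and -3.30, where 16.7% and 25.5% of all genes were lower. Their summed level was 1133 to 1248 CPM in wild type and 595 to 609 CPM in Hox-/- at 96 h, and 1060 to 1072 against 198 to 206 CPM at 120 h. Sox17, the defining endoderm factor, was lower at 96 h (log2 change -4.79, SE 0.115), as was Foxa2 (log2 change -3.02, SE 0.0756). In endoderm cultures all 13 were lower in Hox-/- (23.1% of all genes, median -1.19, summed level 1176 to 1192 CPM in wild type against 718 to 759 CPM), with Sox17 at 24.5 CPM in wild type against 4.89 CPM. With Activin A over Chiron, 12 were higher and 1 lower at 96 h and 13 higher at 120 h (31.3% and 20.3% of all genes were higher), where the Chiron sums were 260 to 278 and 103 to 108 CPM. In mES cells the same 13 genes summed to 638.9 to 645.2 CPM in wild type and 669.4 to 681.5 CPM in Hox-/-. That is above both Hox-/- gastruloid groups, so the summed level does not mark endoderm alone. None of the group means of Sox17 or Foxa2 was at 0. Visceral endoderm, an extraembryonic tissue, also uses several of these factors. Of 8 of its markers, 6 could be tested in endoderm cultures and 5 were lower in Hox-/-, where 23.1% of all genes were (median -1.93). Their summed level was 123 to 155 CPM in wild type against 29.2 to 41.3 CPM. In Activin A gastruloids at 120 h, 6 of the 8 were lower and 1 higher (25.5% and 24.9% of all genes). The sums were 15.9 to 20 CPM in wild type against 3.10 to 3.93 CPM. At 96 h 1 was lower and none higher (16.7% and 22.2% of all genes). Of 13 pluripotency and epiblast genes, 9 were lower and 2 higher in Hox-/- gastruloids at 96 h (16.7% and 22.2% of all genes). Their sums were 1711 to 1725 CPM in wild type against 1289 to 1311 CPM. The part of these lists in the levels of Eomes, Gsc and Lhx1 was not tested.

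Of 7 node and notochord genes, 6 were lower in Hox-/- at 96 h and 6 at 120 h, where 16.7% and 25.5% of all genes were, with medians of -2.78 and -3.46. Their sum was 147 to 171 CPM in wild type against 19.5 to 22 CPM in Hox-/- at 96 h, and 159 to 170 against 15.3 to 15.9 CPM at 120 h. Noto, a notochord homeobox gene, was at 18.4 CPM in wild type against 0.772 CPM in Hox-/- at 96 h, and had no count in Hox-/- at 120 h against 14.5 CPM in wild type. Chrd, a BMP antagonist of the organizer, was at 58.7 CPM in wild type against 5.25 CPM in Hox-/- at 96 h. In endoderm cultures 2 of 5 were higher and 2 lower (23.1% of all genes in each direction). Activin A over Chiron gave 7 of 7 higher at 96 h and 6 of 7 at 120 h, with 31.3% and 20.3% of all genes. T, a notochord gene as well as a streak gene, was higher in Hox-/- at 96 h and lower at 120 h in the same libraries. Its 96 h change did not pass limma's test on log2(FPKM + 1) (adjusted p = 0.536). The part of this list in the levels of Gsc, Lhx1 and T was not tested.

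Of 12 nascent and paraxial mesoderm genes, 5 were higher and 3 lower in Hox-/- at 96 h (median -0.03, with 22.2% and 16.7% of all genes). At 120 h 9 were higher and 1 lower (median 1.58, with 24.9% and 25.5% of all genes). The sum was 482 to 484 CPM in wild type and 1278 to 1279 CPM in Hox-/- at 120 h. The related bHLH gene Mesp2 was at 8.72 CPM in wild type against 88.2 CPM at 120 h (log2 change 3.45, SE 0.0972), and Dll1 and Tbx6, genes of presomitic mesoderm, were higher by 2.61 and 2.65. In the Chiron gastruloids at 96 h, where Mesp1 had its second-highest level, Dll1 was at 829 and Tbx6 at 382 CPM. Of 9 cardiac genes, 8 could be tested at 120 h, and 2 were higher and 5 lower (median -1.67, with 24.9% and 25.5% of all genes). Their sums were 67.9 to 70.2 CPM in wild type and 67.9 to 68.1 CPM in Hox-/-. In endoderm cultures 3 of 11 mesoderm genes were higher and 7 lower (median -0.38, with 23.1% of all genes in each direction). The part of the mesoderm list in the levels of Mesp1 and Mixl1 was not tested. For Lhx1, 4 of 5 intermediate mesoderm genes could be tested at 120 h, with 2 higher and 2 lower (24.9% and 25.5% of all genes).

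Over the 22 libraries, the genes most like each factor were found by Pearson's r of log2(CPM + 1) among 11712 genes with at least 10 CPM in the mean of a group. Libraries of 1 group share their genotype and kind of culture, so these values describe the 10 groups more than 22 separate samples. Eomes was most like Fgf10 (0.921), S100a10 (0.914) and Arhgap22 (0.911), and its r with Gsc was 0.911. T was most like Bex2 (0.993), Rgs12 (0.988) and Lrp8 (0.986). Mixl1 was most like Ptgs1 (0.978), Parp10 (0.974) and Pxdc1 (0.969). Gsc was most like AI661453 (0.924), Flt1 (0.923) and Lrrn4 (0.916). Lhx1 was most like Scara3 (0.948), Sox9 (0.945) and Samd3 (0.940), and Mesp1 like Zbtb22 (0.943), Rtn1 (0.942) and Bend3 (0.939). Among the 6, T and Lhx1 had an r of 0.861, T and Eomes of 0.312, and Eomes and Mesp1 of -0.33. Spearman's rho placed other genes first for all 6, such as Cdh10 for T (0.951) and S100a10 for Eomes (0.920). Tbr1, Tbx21, Tbx19, Gsc2 and Lhx5, listed as close paralogs of Eomes, T, Gsc and Lhx1, had group means of at most 2.40 CPM. Mesp2, related to Mesp1, was not in that list and reached the higher level given above.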

How the data were processed

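The authors deposited raw counts (whole numbers) by Ensembl gene ID for each library, and FPKM values of the same genes. The submitters' processing notes name cutadapt 1.16, STAR 2.7.7a, Cufflinks 2.2.1 and mm10; which tool made the counts, and whether it used strand, is not given in the sources used here. Here, FPKM rows were joined to counts by gene ID, and CPM were computed as counts over the library total. Counts were tested with edgeR 4.0.16 (R 4.3.3): filterByExpr, TMM, 1 coefficient per group, quasi-likelihood test, Benjamini-Hochberg over all genes tested, threshold 0.05. The 4 groups of a gastruloid table shared a fit. The 4 wild-type Activin A libraries stand in both gastruloid tables with identical values. Interaction contrasts tested how effects differed. SE is derived from the fold change and its F statistic. A group with at most 3 counts in each library is at the floor.

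Text names all 6 members; per list and genotype or treatment contrast, up to 3 called genes of at least 2-fold with the smallest p; and the 3 genes most like each member. Some genes that this rule picks are not reported here. The members and the 13 lists (127 genes) were chosen with earlier results of these data known. Alternatives were other size factors, filters, DESeq2 1.42.0, limma 3.58.1 on log2 FPKM, the replicate block, only the groups compared, and each library left out; GC and length offsets and thinned counts were chosen after seeing the data. On simulated counts, 94.5 to 100% of 200 genes changed 2-fold were recovered, with 1.98 to 7.87% false calls. The changed genes were drawn only from those above a cut-off in mean count, and all other genes were left unchanged. These rates therefore do not cover genes of few counts or contrasts in which many genes change. Replicates differed beyond counting error in each group (chi-square per degree of freedom 1.37 to 10.3).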

Additional observations from a re-analysis of the deposited data

Results flagged for a closer look

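Each result here comes from a test of the difference between the effects of one contrast in 2 settings (edgeR's quasi-likelihood test of the interaction, adjusted over all genes). The log2 change of Hox-/- over wild type in Activin A gastruloids was higher, meaning less negative or more positive, at 120 h than at 96 h by 3.169 for Mesp1 (adjusted p = 3.67e-12), 2.458 for Lhx1 (5.25e-28), 1.61 for Mixl1 (3.71e-13), 1.425 for Eomes (2.55e-12) and 1.231 for Gsc (5.48e-07). For T the difference was -1.128 (adjusted p = 1.71e-21). The effect of Activin A against Chiron in wild type differed between 120 h and 96 h by 2.10 for Lhx1 (adjusted p = 7.40e-09), 1.83 for Mesp1 (0.00114) and -0.5832 for T (6.26e-06). The effect of genotype on T differed between endoderm cultures and mES cells by 1.979 (adjusted p = 8.41e-05). T had only 8 and 11 counts in the Hox-/- mES libraries, and its genotype change did not pass limma's test on log2(FPKM + 1) in either culture. The wild-type Activin A libraries serve in both gastruloid tests. No group had 4 or more libraries, so single libraries were not tested as standing apart.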

How the results depend on the processing

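The 76 log2 changes of the 6 genes were recomputed under the alternatives. Of 731 values other than those that leave out a library, 706 kept their direction and their side of the threshold, 13 lost the call, 7 gained it and 5 turned direction. Of 396 values with a library left out, 379 kept both, 2 lost the call, 6 gained it and 9 turned direction. No called change turned direction under any of them, library totals included. The 14 that turned had not passed. Mesp1 over time in wild-type Activin A gastruloids came to -0.064 with GC and length offsets and -0.070 with thinned counts, and ranged from -0.089 to 0.24 with a library left out. Mesp1 between treatments at 120 h came to -0.057 with the offsets and ranged from -0.37 to 0.56, and Mesp1 between genotypes at 96 h from -0.19 to 0.13. Gsc in the treatment by time contrast came to -0.87 on log2(FPKM + 1), passing the threshold (adjusted p = 0.0316), and to -0.13 with a pseudocount of 0.1, and ranged from -0.081 to 0.46. Gsc between mES genotypes ranged from -0.59 to 0.49, and Mixl1 in the genotype by differentiation contrast from -0.11 to 1.66. The cause was not tested.

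Of 210 recomputed counts of the genes called, 180 equalled the reported count and 12 lay outside 1.5 times of it, as follows. A filter of at least 10 counts in every library tested fewer genes and left 3 for treatment at 96 h, 2 for treatment at 120 h, 3 for time with Chiron, 0 for genotype by differentiation, 2 for each differentiation contrast and 1 for genotype in mES cells. Genotype in mES cells gave 1 with DESeq2 and 0 on either FPKM scale, and genotype by differentiation gave 2 with GC and length offsets; the cause was not tested. With each library left out, the calls ranged from 1 to 2 for genotype in mES cells, 4 to 5 in endoderm, 5 to 6 for time in Hox-/- and in Chiron gastruloids and 3 to 4 for treatment by time, and were fixed at 5 and 6 for genotype at 96 h and 120 h, 6 for their difference, 5 for time in wild type, 6 and 5 for treatment, 5 for both differentiation contrasts and 1 for genotype by differentiation. Fits without a library that left 1 in an arm assume that it varies like the other groups.

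The labels do not say whether replicate numbers pair the samples. Same-numbered libraries had deviations from their group correlated from -0.182 to 0.190. In groups of 2 libraries the deviations mirror each other, so these values cannot tell whether same-numbered samples were handled together. With the replicate number as a block no change of the 6 genes gained or lost its call, and at 96 h the genotype contrast again called 5, with Lhx1 at -3.15.

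Over all genes, DESeq2 called 1099 of the mES genotype changes against 3168, and limma 23 with a pseudocount of 1 and 357 with 0.1. At 96 h the genotype count was 6546, with DESeq2 3647 and with limma 2665 and 2748; the share higher was 57.0% and came to 43.9% with no filter, 34.5% and 30.7% with limma. Limma also gave 4193 and 4239 against 6544 for genotype by time (48.0% higher, 59.1% with no filter, 58.1% with limma on the smaller pseudocount), 6684 against 10655 for treatment at 96 h on log2(FPKM + 0.1) and 4469 against 6922 in endoderm on log2(FPKM + 1). Scaling by library totals moved the median of all genes to -0.13 for genotype at 120 h, against -0.02, and to 0.18 for differentiation in either genotype, against 0.07 in wild type and 0.10 in Hox-/-. Depth set a floor of 0.104 to 0.329 CPM, which bears on Mesp1, Lhx1 and Mixl1 in mES cells and on Mesp1 in endoderm cultures. It also bears on Eomes (4 and 8 counts) and Gsc (4 and 4 counts) in the Chiron gastruloids at 120 h.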
